A study of Mus musculus with 27 samples.

Results

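The genes described here had a higher RNA level in pre-iPSCs than in the cells before and after them, where most were low. Pre-iPSCs are partly reprogrammed cells that have left the fibroblast state without reaching pluripotency. A gene was taken when, in each of the 2 deposited expression tables, its FPKM + 1 in pre-iPSCs was at least 4 times that in MEFs (mouse embryonic fibroblasts) and at least 4 times that in iPSCs (induced pluripotent stem cells). FPKM counts RNA fragments relative to transcript length and to the mapped fragments of the library. Genes of the reprogramming factors (Pou5f1, Sox2, Klf4, Myc) and symbols beginning with Krt were left out by name. Of 20156 genes in the tables, 140 met the rule, and 7 more met the ratios but were left out by name (Klf4, Myc, Krt13, Krt14, Krt17, Krt19 and Krtdap). Since the RNA values chose the members, their expression is given below as a description and was not tested.

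MEFs came from e13.5 embryos hemizygous for an Oct4-GFP transgene and for a Rosa26 allele, on a background labelled CBA/CaJ and C57BL/6J, with 129Sv/Jae mothers according to the methods. Pre-iPSCs and iPSCs were made from such MEFs with retroviruses carrying the Yamanaka factors, and were grown on mitomycin-treated MEF feeders in LIF medium for 6 passages, against no more than 3 for MEFs. RNA-seq and MNase ChIP-seq of histone H3, H3K4me3 and H3K27me3 were done in 2 replicates per cell type, and H3K9me3 in 1 library per cell type. The study kept 2 stable pre-iPSC clones and iPSCs derived from them. The sources used here do not say which clone gave which library, so a p-value measures only the spread between these libraries. MEFs were digested with another amount of MNase and for another time, so a difference from MEFs in the ChIP libraries cannot be told apart from digestion. A few feeder cells and a low level in every cell cannot be told apart in bulk RNA.

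Promoters of active genes usually carry H3K4me3, whereas H3K27me3, laid down by Polycomb repressive complex 2, covers many silent developmental genes. H3K9me3 marks compacted, silenced chromatin. Promoters rich in CpG dinucleotides tend to hold H3K4me3 in most cell types, and CpG-poor promoters tend to gain it where the gene is transcribed. Partly reprogrammed cells are known for strong expression of the viral transgenes, loss of fibroblast genes and incomplete activation of the pluripotency network, often with genes of unrelated lineages switched on.

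The markers of the labelled cell types followed the labels. Pairs of values are replicates 1 and 2 throughout. The 12 fibroblast markers summed to 340 and 106 FPKM in pre-iPSCs, against 4617 and 4482 for MEFs and 253 and 307 for iPSCs. The 12 pluripotent cell markers summed to 278 and 395 FPKM in pre-iPSCs, against 0.0233 and 0.404 for MEFs and 1958 and 1998 for iPSCs. The 12 keratinocyte markers summed to 95.3 and 78.8 FPKM in pre-iPSCs, against 3.11 and 4.38 for MEFs and 3.82 and 4.15 for iPSCs. They include the member Itgb4 and also Krt14, which met the ratios and was left out by name. Krt14 was at 13.5 and 6.28 FPKM in pre-iPSCs. The sum was therefore partly fixed by the selection and does not count as separate support. All 12 were above 0 in at least 1 pre-iPSC library, and their part in the results below was not tested. The 10 trophoblast cell markers summed to between 0.557 and 4.10 FPKM over the 6 libraries, with 6 listed at 0 in both pre-iPSC libraries, and the 10 neural progenitor markers to between 32.7 and 95.2 FPKM.

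Promoter sequences show how unlike the members' start sites were. The 250 bases before the transcription start site (TSS), on the strand of the gene and in build mm9, are given for 5 members, with every CpG in capitals. Nccrp1, 2410137M14Rik and Dock9 are shown because both histone marks changed at their promoters. Tlx3 stands for the CpG-rich promoters and Klk1, which had the highest RNA level of them, for those with the fewest CpGs. The stretches hold 3, 8, 7, 13 and 1 CpG, in the order printed.
Nccrp1, chr7:29332274-29332523, minus strand: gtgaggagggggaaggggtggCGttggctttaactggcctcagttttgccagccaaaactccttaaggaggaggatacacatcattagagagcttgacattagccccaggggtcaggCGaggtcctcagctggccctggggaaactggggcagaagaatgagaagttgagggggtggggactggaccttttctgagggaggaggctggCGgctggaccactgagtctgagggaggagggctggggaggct
2410137M14Rik, chr17:37118183-37118432, minus strand: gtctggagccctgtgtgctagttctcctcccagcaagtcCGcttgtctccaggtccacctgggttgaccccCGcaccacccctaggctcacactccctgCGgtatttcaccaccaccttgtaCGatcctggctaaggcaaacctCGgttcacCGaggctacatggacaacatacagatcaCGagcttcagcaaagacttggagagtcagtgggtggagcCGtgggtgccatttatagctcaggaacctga
Dock9, chr14:122138152-122138401, minus strand: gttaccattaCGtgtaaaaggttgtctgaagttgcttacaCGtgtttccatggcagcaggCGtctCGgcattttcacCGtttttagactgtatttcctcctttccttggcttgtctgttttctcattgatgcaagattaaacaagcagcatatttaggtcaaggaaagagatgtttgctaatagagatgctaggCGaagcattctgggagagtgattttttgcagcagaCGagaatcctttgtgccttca
Tlx3, chr11:33103589-33103838, minus strand: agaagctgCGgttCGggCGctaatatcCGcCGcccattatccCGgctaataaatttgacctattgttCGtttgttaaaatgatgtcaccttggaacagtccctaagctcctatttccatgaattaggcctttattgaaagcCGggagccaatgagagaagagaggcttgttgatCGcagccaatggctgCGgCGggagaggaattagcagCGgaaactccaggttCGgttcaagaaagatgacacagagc
Klk1, chr7:51480557-51480806, plus strand: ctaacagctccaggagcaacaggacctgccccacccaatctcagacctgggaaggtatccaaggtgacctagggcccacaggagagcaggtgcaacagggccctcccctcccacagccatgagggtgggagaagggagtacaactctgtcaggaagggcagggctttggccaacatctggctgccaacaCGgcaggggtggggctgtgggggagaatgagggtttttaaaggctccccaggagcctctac

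In pre-iPSCs the 140 members made up 1.55% of the summed FPKM of all genes in replicate 1 and 2.00% in replicate 2. The share was 0.0539% and 0.0941% for MEFs and 0.0736% and 0.0952% for iPSCs. The median member was at 18.9 and 18.4 FPKM in pre-iPSCs, against 0.201 and 0.221 for MEFs and 0.695 and 0.673 for iPSCs. In both MEF libraries 87 members were under 1 FPKM, in both iPSC libraries 77, and in all 4 of these libraries 62. A further 23 members were at 1 FPKM or more in every library, so their RNA was not confined to the pre-iPSC libraries. The 2 pre-iPSC libraries lay within a factor of 2 on the FPKM + 1 scale for 104 members, with 23 higher in replicate 2 and 13 higher in replicate 1 by more than that.

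The smallest of a gene's 4 ratios of FPKM + 1 is called here its least ratio, and the 15 members with the highest values were led by a transporter and a protease. Slc38a5, an amino acid transporter that carries glutamine and other neutral amino acids, was at 553 and 369 FPKM in pre-iPSCs, against 0 and 0.174 for MEFs and 0.610 and 0.296 for iPSCs, with a least ratio of 285. Klk1, a tissue kallikrein protease, was at 585 and 1178 FPKM in pre-iPSCs, against 0 and 0.421 for MEFs and 1.16 and 0.598 for iPSCs, with a least ratio of 272. Both were separated from MEFs and iPSCs by more than 100-fold in each table.

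Genes of stratified epithelium and secreted peptides followed. Nccrp1, an F-box related gene of squamous epithelia, was at 121 and 114 FPKM in pre-iPSCs, at 0.595 and 0.184 in iPSCs, and listed at 0 in both MEF libraries. Lgals7, a galectin of stratified epithelium, was at 152 and 215 FPKM in pre-iPSCs, against 0.464 and 2.48 for MEFs and 0 and 0.806 for iPSCs. S100a3, a calcium-binding protein of the hair cuticle, was at 135 and 176 FPKM in pre-iPSCs, against 1.26 and 2.35 for MEFs and 0.138 and 0.157 for iPSCs. These genes reached similar levels in both pre-iPSC libraries, whereas several of the next ones did not. Tac2, which encodes the precursor of neurokinin B, was at 62.1 and 179 FPKM in pre-iPSCs, at 0.440 and 0 in iPSCs, and listed at 0 in both MEF libraries. Npy, the precursor of neuropeptide Y, was at 80.8 and 649 FPKM in pre-iPSCs, against 0.800 and 4.86 for MEFs and 2.02 and 4.85 for iPSCs. Sprr2b, a cornified envelope protein of a family of near-identical copies, was at 129 and 28.7 FPKM in pre-iPSCs and listed at 0 in the other 4 libraries. Replicate 2 was thus higher for both neuropeptide precursors and replicate 1 for Sprr2b.

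The rest of the 15 covered several functions. Atp2a3, a calcium pump of the endoplasmic reticulum, was at 107 and 89.0 FPKM in pre-iPSCs and at most 1.63 elsewhere. Cldn11, a tight junction claudin of myelin and testis, was at 62.0 and 49.2 FPKM in pre-iPSCs and at most 0.258 elsewhere. Msln, the mesothelial surface protein mesothelin, was at 94.6 and 119 FPKM in pre-iPSCs against 0.584 and 3.08 in MEFs. In all 3 the lowest pre-iPSC library was far above the highest other library. Fetub, a fetuin protease inhibitor, was at 136 and 190 FPKM in pre-iPSCs and between 0.314 and 4.01 elsewhere. Mal, a proteolipid of myelin and epithelial apical membranes, was at 20.7 and 42.5 FPKM against at most 0.0899. Cyp2b23, a cytochrome P450, was at 140 and 76.9 FPKM against 0 in MEFs and 4.48 and 3.30 in iPSCs. The uncharacterised 2610528A11Rik was at 39.9 and 287 FPKM in pre-iPSCs and at most 1.45 elsewhere.

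**Figure D1:**
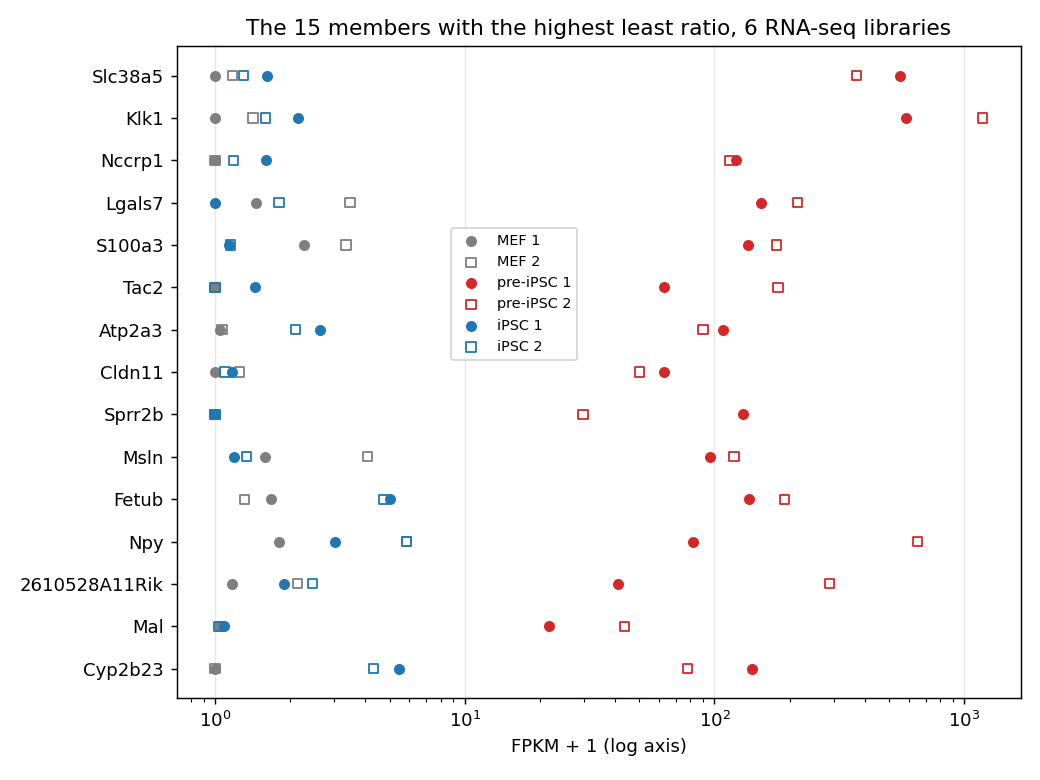
FPKM + 1 (log axis) of the 15 members with the highest least ratio in 6 RNA-seq libraries; filled circles are replicate 1 and open squares replicate 2. Pre-iPSC values (red) lie to the right of all MEF (grey) and iPSC (blue) values for each of these genes, which the selection fixed.

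The 140 members were then grouped by known function, after the list was seen. The largest group with a shared role held 15 genes of epidermal differentiation, adhesion and the skin barrier, among them Sprr2b, Lgals7, Tgm3, Dmkn, Nccrp1, S100a3, S100a16, Perp, Lad1, Itgb4, Mt4, Lypd2, Lypd5 and Cldn11. Their mean level in pre-iPSCs ranged from 4.79 to 210 FPKM. Perp, a desmosomal protein, was the highest, at 221 and 199 FPKM in pre-iPSCs, against 0.603 and 37.2 for MEFs and 6.19 and 11.01 for iPSCs. Itgb4, an integrin subunit of the hemidesmosomes that anchor basal keratinocytes, was at 31.7 and 54.4 FPKM in pre-iPSCs and at most 1.47 elsewhere. Tgm3, an epidermal cross-linking enzyme, was at 5.45 and 7.19 FPKM, Dmkn at 13.4 and 12.0, and Fgfbp1, a carrier of fibroblast growth factors made by epithelia, at 110 and 203.

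Secreted peptides and factors numbered 7 (Tac2, Npy, Ucn3, Tff2, Ntn1, Mst1 and Fgfbp1). Ucn3, a hormone of the corticotropin-releasing family, was at 9.40 and 8.17 FPKM in pre-iPSCs and listed at 0 in the other 4 libraries. Tff2, a mucus-stabilising trefoil peptide of the stomach, was at 6.82 and 4.13 FPKM and also listed at 0 elsewhere. Proteases, their inhibitors and complement numbered 10 (Klk1, Klk1b22, Klk1b24, Klk10, Klk11, Tmprss5, Fetub, Ahsg, C1s and C1ra). Detoxification enzymes numbered 7 (Aldh3a1, Cyp2b23, Cyp2s1, Cyp4f39, Ces2g, Ugt1a6a and Ugt1a6b). Aldh3a1, an aldehyde dehydrogenase of the cornea, was at 24.4 and 16.8 FPKM in pre-iPSCs, Cyp2s1 at 19.2 and 46.3, Cyp4f39 at 24.6 and 11.7, and Ces2g at 5.46 and 5.97. Of these 4 enzymes the highest value outside pre-iPSCs was 2.00 FPKM, that of Cyp2s1 in iPSCs.

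Genes known from neurons and glia made up 2 groups. Receptors and signalling proteins of neurons numbered 10 (Gfra2, Ngfr, Grm4, Grin1, Cacna2d2, Rgs8, Arc, Mapt, Prkcc and Ddc), with means between 4.09 and 37.7 FPKM in pre-iPSCs. Gfra2, a co-receptor for neurturin, was at 19.0 and 15.8 FPKM in pre-iPSCs and at most 0.286 elsewhere. Cacna2d2, a calcium channel subunit, was at 12.1 and 23.1 FPKM, listed at 0 in MEFs and at 1.51 and 1.27 in iPSCs. Mapt, the microtubule protein tau, was at 12.7 and 21.8 FPKM in pre-iPSCs, and at 2.41 and 1.64 in iPSCs. Myelin and glia genes were Mal, Pllp, Prx and Aspa, with means between 10.7 and 34.5 FPKM.

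Transcription and chromatin genes numbered 11 (Rfx4, Tox3, Vax2, Zbtb7c, Tcfap2a, Msc, Tlx3, Eya2, Atf3, Nr4a1 and Smarca2). Rfx4, a factor of neural tube and cilia development, was at 26.9 and 14.5 FPKM in pre-iPSCs and at most 0.133 elsewhere. Tlx3, a homeobox factor of sensory neurons, was at 6.82 and 6.38 FPKM, listed at 0 in MEFs and at 0.756 and 0.551 in iPSCs. Solute transporters and pumps were Slc38a5, Slc39a8, Atp2a3 and Atp6v1c2. Enzymes of metabolism and glycosylation numbered 9 (Naprt1, Nt5e, Pde9a, Nat8l, Cml3, Abp1, Gcnt3, St3gal6 and Hs3st3a1). Matrix, surface and receptor genes also numbered 9 (Msln, Podxl, Lama4, Calcrl, Ramp3, Cdhr1, Sned1, Adam23 and Tspan7). Calcrl and Ramp3 together form a receptor for adrenomedullin.

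Genes of immune and blood cells numbered 14 (Il2rg, Irak3, Ceacam1, Ly6c2, Ly6g6f, Ifitm6, H60b, Oas1a, Parp12, Snx20, Myo1g, Srgn, Lrmp and Tspan32), and Oas1a, an antiviral enzyme induced by interferon, was at 8.42 and 7.50 FPKM in pre-iPSCs. The 10 macrophage and leukocyte markers, all detected, summed to 50.2 and 116 FPKM in pre-iPSCs, against 49.4 and 35.1 for MEFs and 20.9 and 79.3 for iPSCs, and their part in this group was not tested. Signalling through G proteins, small GTPases and kinases held another 14 (Arhgef26, Arhgap8, Plekhg1, Plekha6, Asap2, Dock9, Adap1, Gna14, Gngt2, Dusp14, Nrarp, Apcdd1, Shisa3 and Sh3rf2), and Nrarp, a feedback inhibitor of Notch, was at 10.9 and 17.6 FPKM. The remaining 26 had other or unknown roles: 2610528A11Rik, 8430408G22Rik, 2310046K01Rik, 2410137M14Rik, Fam154a, Syne2, A230065H16Rik, Rbm20, Crabp2, Gm6792, Ypel2, Rsph1, Vat1l, Tex21, Oit1, Tmem45a, Ttll13, Reep1, 1700029G01Rik, Fry, Fam174b, Phldb3, A630001G21Rik, Fam53b, Gm106 and Crip1.

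Members close to the threshold show what the rule decided. Just inside were Fam53b, Gm106, Crip1, Dock9 and Mapt, with least ratios between 4.02 and 4.04. Crip1, a LIM-domain protein, was the most abundant member in pre-iPSCs, at 867 and 1632 FPKM, and it was not silent elsewhere, at 90.7 and 403 in MEFs and 137 and 88.2 in iPSCs. Just outside were Iqgap2, Clic3, Sfn, Tgm1 and 8430410A17Rik, with least ratios between 3.86 and 3.95. Sfn and Tgm1, both epidermal differentiation genes, failed on the ratio to iPSCs in replicate 2, where they stood at 20.9 and 1.16 FPKM.

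Other genes of the same pathways were taken from lists and tested for the genes that are no members. The test was limma on log2(FPKM + 1) with Benjamini-Hochberg adjustment, and genes past an adjusted p of 0.05 that also changed at least 2-fold were called. All 67 calls of listed genes between pre-iPSCs and MEFs, those of kallikreins included, rest on a filter that left out genes with a mean under 0.5 FPKM: without it limma called 0 of them. Between pre-iPSCs and MEFs 916 genes were called higher and 1116 lower, together 16.4% of the 12401 tested, with a median change of -0.04 (log2). Of 23 tested genes of desmosomes and tight junctions, 11 were higher and 2 lower, with a median of 1.40. Dsg2, a desmosomal cadherin, was higher by 3.70 ± 0.37 (log2, SE; adjusted p = 0.00163), Cdh1, E-cadherin, by 3.79 ± 0.49 (adjusted p = 0.00362), and Cdh3 was lower at -2.95 ± 0.42 (adjusted p = 0.00496). Of 13 epidermal differentiation genes, 6 were higher and 1 lower, with a median of 0.98. One of the higher genes is Krtdap, which met the ratios of the rule and was left out by name, so its change was fixed by the selection. S100a14 and Ppl averaged under 0.5 FPKM over MEFs and iPSCs, so they entered the test only through the group where they are high. Neither they nor Krtdap add to the count as support, and the median of 0.98 includes them, so it is not support either. Of 16 epithelial transcription and splicing factors that are no members, 9 were higher and 2 lower, with a median of 1.85. The member Tcfap2a stood on this list under its other symbol, Tfap2a, and was not matched. Grhl3, a regulator of the skin barrier, was higher by 2.59 ± 0.35 (adjusted p = 0.00395). Barx2 and Grhl1, among the higher factors, likewise entered the test only through pre-iPSCs, and the median of 1.85 includes them.

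Of 17 neural patterning factors that are no members, 8 were higher and 1 was lower, the higher ones including Zic2 by 3.56 ± 0.45 (adjusted p = 0.00332) and Pax6 by 2.71 ± 0.37 (adjusted p = 0.00426). Of 22 neuronal and synaptic genes 4 were higher and 1 lower, of 21 Notch pathway genes 4 and 0 (Jag2, Notch4, Mfng and Rfng), of 22 interferon response genes 3 and 2, and of 20 xenobiotic enzymes 3 and 2. Tlx2, Nkx2-9, Oas2, Aox3 and Ces2e, counted among the higher genes here, entered the test only through pre-iPSCs. Of 14 trophoblast genes 2 were higher and 2 lower, and of 10 Hedgehog genes limma called 0 in either direction, with 2 higher and 2 lower at an unadjusted p below 0.05.

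In iPSCs against pre-iPSCs, 485 genes were called higher and 584 lower, together 8.62% of those tested. No epidermal differentiation gene was higher and 4 of 13 were lower (Sfn, Tgm1, S100a14 and Krtdap, the last again fixed by the selection). S100a14, and Barx2, Aox3 and Ces2e among the lower genes of the lists that follow, had entered the test only through pre-iPSCs. Among the junction genes 5 were higher, including Cdh1 and Cldn6, and 2 were lower, and among the epithelial factors 1 was higher and 2 were lower. The neural patterning factors split 2 to 3, the neuronal genes 3 to 0, the Notch genes 1 to 2, the interferon genes 1 to 0, the xenobiotic enzymes 1 to 5 and the trophoblast genes 2 to 2, higher to lower. The counts of this comparison changed with single libraries: over all lists 38 genes were called, 4 without the filter on low FPKM, 2 without replicate 1 of iPSCs, 0 without replicate 2, and 74 and 73 without replicates 1 and 2 of MEFs.

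The members were spread over every chromosome except Y. Chromosome 7 held 21 members, 15.0% of them against 9.33% of all genes, followed by chromosome 11 with 15, chromosome 1 with 12 and chromosome 6 with 11. Chromosomes 4 and 13 held 2 each, although 6.15% and 3.74% of all genes lie there. Neighbouring members are not independent, and 17 members formed 8 groups in which the next member's TSS lay within 100 kb. The groups were Ugt1a6b with Ugt1a6a, Cdhr1 with 2610528A11Rik, Arc with Lypd2, Ahsg with Fetub, S100a16 with S100a3, C1ra with C1s, Klk11 with Klk10, and Klk1b22 with Klk1b24 and Klk1. No test of clustering was made.

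Some genes between neighbouring members were not raised with them. Ahsg and Fetub, fetuin genes 28180 bp apart, were at 15.7 and 22.5 FPKM and at 136 and 190 FPKM in pre-iPSCs. C1ra and C1s, proteases of the first complement component, were at 13.0 and 13.1 FPKM and at 7.73 and 15.7 FPKM. Between S100a16 (130 and 244 FPKM) and S100a3, S100a2 was listed at 0 in both pre-iPSC libraries. Between Arc (22.1 and 22.4 FPKM) and Lypd2 (4.57 and 5.01 FPKM) lay 4 genes that are no members, of which Slurp1 reached only 0.228 and 0.205 FPKM. Ugt1a6a (5.56 and 5.14 FPKM) and Ugt1a6b (16.8 and 25.2 FPKM) share most of their exons, so reads could be divided between them and their separate values are uncertain. Cdhr1, a photoreceptor cadherin, was at 6.90 and 20.0 FPKM beside 2610528A11Rik.

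The kallikreins, a cluster of serine protease genes on chromosome 7, held 5 members among 26 genes. Klk11 and Klk10, with TSSs 6437 bp apart, were at 15.9 and 5.02 FPKM and at 18.1 and 10.0 FPKM in pre-iPSCs. Klk1b22 was at 11.7 and 34.0 FPKM and Klk1b24 at 3.35 and 21.6, both higher in replicate 2, as was Klk1. Of the kallikreins that are no members, Klk1b27 (1.09 and 10.3 FPKM), Klk1b9 (1.23 and 2.29) and Klk1b3 (1.63 and 5.15) were detected in pre-iPSCs and listed at 0 in the other 4 libraries. They entered the test only through their pre-iPSC values, so their calls are not counted as a result. Klk8, at 3.01 and 1.67 FPKM in pre-iPSCs against 7.46 and 22.6 for MEFs, was the only other one tested and was lower than in MEFs. The Klk1b genes are close paralogs of Klk1, so their separate values are uncertain. Klk5, Klk6, Klk7, Klk12 and Klk1b8 were listed at 0 in both pre-iPSC libraries.

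**Figure D2:**
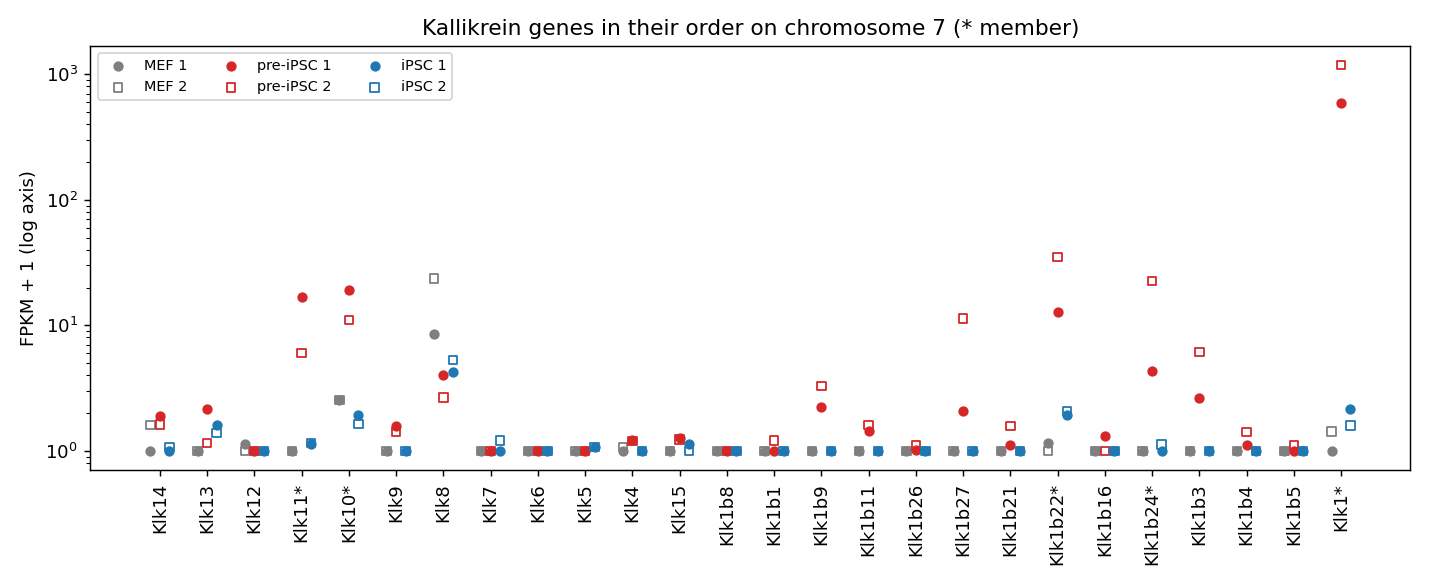
FPKM + 1 (log axis) of 26 kallikrein genes, ordered along chromosome 7, in 6 RNA-seq libraries; filled circles are replicate 1, open squares replicate 2 and stars mark members. Klk1 stands highest, at 585 and 1178 FPKM in pre-iPSCs, while the highest MEF values are those of Klk8, at 7.46 and 22.6 FPKM.

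Promoters of members were poorer in CpG than promoters in general. Over 500 bp either side of the TSS the median ratio of observed to expected CpG was 0.420, against 0.601 over all genes. A promoter was called CpG-rich at a ratio of at least 0.6 and a GC content of at least 50%, which held for 50 members (35.7%) and for 48.8% of all genes. Klk1, Klk1b24 and Ly6c2 had the lowest ratios, 0.0439, 0.0466 and 0.0650, with 3, 3 and 4 CpGs in the window. Parp12, Tcfap2a and Adap1 had the highest, 1.06, 1.04 and 0.972, with 138, 71 and 117 CpGs. The members' roles differed in this: 10 of the 11 transcription and chromatin genes had CpG-rich promoters, and none of the 10 proteases and complement genes or of the 7 detoxification enzymes did.

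Short motifs were searched on both strands from 250 bases before to 50 bases after the TSS. The octamer ATGCAAAT, the letters that Oct4 and other POU factors bind, was in 7 members (5.00%) and in 1.70% of all promoters. It was singled out after all 9 motifs had been counted, and the shares of the others in members and in all promoters were: TGANTCA, the AP-1 site, 9.29% against 6.80%, GGAATG, the TEAD site, 17.9% against 12.8%, TATAAA 8.57% against 12.7%, GGGCGG 50.7% against 49.1%, GGGNGTGG 17.1% against 19.8%, GCCNNNGGC 17.9% against 20.8%, CACGTG 7.86% against 8.06%, and TGACGTCA 0.714% against 2.55%. Counted as well was TATAAA on the gene's strand 40 to 20 bases before the TSS, in 3.57% of members and 2.42% of all promoters. A match is only a run of letters. The 7 octamers (capitals, ATTTGCAT being the same on the other strand) stood in these surroundings, that of C1ra just after the TSS and the others before it.
A630001G21Rik, chr1:87633176-87633203, minus strand: gaggaagtgaATGCAAATttcactaaag
Atp6v1c2, chr12:17331592-17331619, minus strand: ggcagcccgtATGCAAATatcagagggg
C1ra, chr6:124462647-124462674, plus strand: tttgctgtttATGCAAATgcttcattcc
Nrarp, chr2:25036219-25036246, plus strand: gtctattgttATGCAAATataagaaccg
Prx, chr7:28284100-28284127, plus strand: tgggggtggtATGCAAATtcttgaacta
Sned1, chr1:95132323-95132350, plus strand: aaatgccactATTTGCATgaccccgcct
Sprr2b, chr3:92120509-92120536, plus strand: ttacggatgaATTTGCATttgtgttagg
The RNA levels of these 7 members were unlike, from 128.9 and 28.7 FPKM for Sprr2b to 3.98 and 5.66 for Atp6v1c2 in the 2 pre-iPSC libraries.

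For the histone marks, reads of called nucleosomes whose dyads lay within 500 bp of the TSS were counted at all promoters. RPKM here is these reads relative to the window's length and to the library's unique reads. The calls of the H3K4me3, H3K27me3 and H3K9me3 libraries held between 12007350 and 15222040 reads, and those of the H3 libraries between 67362868 and 108211816. Spread evenly over the genome, the reads of each mark would give about 0.30 RPKM (0.303 to 0.307), which is the level to read the promoters against. The H3 libraries of pre-iPSC replicate 1 and iPSC replicate 1 stood apart, with median promoter H3 of the members at 0.800 and 0.572 RPKM against 0.165 to 0.275 in the other 4. Many promoters hold few reads, as the values below show.

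H3K4me3 at member promoters was higher in pre-iPSCs than in MEFs relative to other promoters, while the median RPKM of the cell types overlapped. The median member was at 0.950 and 0.909 RPKM in pre-iPSCs, against 0.914 and 0.700 for MEFs and 0.992 and 0.921 for iPSCs. The median over all promoters was 0.858 and 0.714 RPKM in pre-iPSCs, against 1.22 and 0.955 for MEFs and 0.930 and 0.789 for iPSCs. Members thus stood below the general median in both MEF libraries and above it in the other 4. The tests below are relative to the promoters as a whole, since TMM scaling takes out such a general shift.

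In edgeR's quasi-likelihood test, with adjusted p over 14874 promoters, 15 of the 128 members with enough reads passed as higher in pre-iPSCs and none as lower. Over all tested promoters 1.53% were called higher and 0.323% lower. The remaining 12 members had too few reads. The median change was 0.67 (log2) over the tested members and -0.02 over all promoters. Both pre-iPSC libraries lay above both MEF libraries at 82 of the 128, against 23.0% of all promoters. Some tested members, among them C1ra, Oas1a, Gcnt3 and Slc38a5, had enough reads only in pre-iPSCs. These 4 were not called. Of the 15 called, S100a16, Plekha6, Snx20, Lypd2 and C1s passed the read filter only with a pre-iPSC library. The median change and the count of libraries apart include all of these members, and they do not count as support. The number called was 39 of 135 with 1000 bp either side, where 3.05% of all promoters were called higher, and 0 with DESeq2, which called 3 promoters in all. It was 1 and 5 without replicates 1 and 2 of MEFs, and 7 and 5 without those of pre-iPSCs.

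The 15 came from several groups of function. The group of epidermal differentiation, adhesion and the skin barrier gave 5 (S100a16, Cldn11, Tgm3, Nccrp1 and Lypd2), of which Cldn11 is a claudin of myelin and testis. Levels are CPM, the promoter's reads scaled to the library's promoter reads with TMM factors. The largest change was at Prx, periaxin, a protein of myelinating Schwann cells: 103 and 90.9 in pre-iPSCs, against 5.59 and 23.6 for MEFs and 37.6 and 79.0 for iPSCs. This is a log2 change of 2.77 ± 0.52 (SE, adjusted p = 0.000159) between pre-iPSCs and MEFs. Its CpG-poor promoter is one of those with an octamer. Tspan32, a tetraspanin of blood cells, was at 106 and 105 in pre-iPSCs, against 16.8 and 16.9 for MEFs and 44.4 and 100.9 for iPSCs, a log2 change of 2.62 ± 0.47 (adjusted p = 9.85e-05). Tgm3 had 14 and 11 reads in pre-iPSCs, against 2 and 4 for MEFs and 11 and 10 for iPSCs, a log2 change of 2.40 ± 0.65 (adjusted p = 0.0267). In all 3 the MEF libraries were the lowest and the iPSC libraries lay above them, at Prx and Tspan32 below both pre-iPSC libraries.

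Klk11 was higher by 2.36 ± 0.61 (log2, adjusted p = 0.0195), S100a16 by 2.30 ± 0.45 (adjusted p = 0.000428), C1s by 2.25 ± 0.67 (adjusted p = 0.0482) and Lypd2 by 2.20 ± 0.63 (adjusted p = 0.0383). The uncharacterised 2410137M14Rik had the lowest adjusted p of all members, 5.51e-05, with 132 and 168 in pre-iPSCs, against 22.4 and 43.8 for MEFs and 54.6 and 65.8 for iPSCs. Snx20, Plekha6, Msln and Dock9 were higher by between 2.01 and 2.16, and Eya2, Cldn11 and Nccrp1 by 1.79, 1.49 and 1.43. Slc38a5 and Klk1, the members of highest least ratio, had few H3K4me3 reads, 10 and 9 in pre-iPSCs against 6 and 4 for MEFs at Slc38a5, and 7 and 12 against 0 and 3 at Klk1. At their CpG-poor promoters high RNA thus went with few H3K4me3 reads in this window. Klk1 was at 0.429 and 0.779 RPKM in pre-iPSCs, against a median of 0.490 and 0.454 over all CpG-poor promoters. It was therefore not low for its kind of promoter.

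Between pre-iPSCs and iPSCs no member was called for H3K4me3, and no promoter at all, in edgeR or DESeq2. At an unadjusted p below 0.05 in edgeR, 10 members were lower in iPSCs and 0 higher, against 3.19% and 4.07% of all promoters. The 10 include Gcnt3 and C1ra, which passed the read filter only through pre-iPSCs, and S100a16, which passed only with a pre-iPSC library. None of these counts as support. The median change of the members was -0.17 (log2), and both iPSC libraries lay below both pre-iPSC libraries at 33 of 128, against 18.2% of all promoters.

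H3K27me3 at member promoters was lower in pre-iPSCs than in either other cell type. The median member was at 0.225 and 0.214 RPKM in pre-iPSCs, against 0.363 and 0.476 for MEFs and 0.403 and 0.418 for iPSCs. Over all promoters the medians were between 0.159 and 0.230 RPKM in all 6 libraries. Members thus stood well above the general median in MEFs and iPSCs and close to it, 0.225 and 0.183 RPKM, in pre-iPSCs. Both pre-iPSC libraries were below all 4 others at 56 of the 140 members, against 5.57% of all promoters. These shares are not matched for read level, which was higher at members in MEFs and iPSCs, and its part was not tested.

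Of 51 members with enough H3K27me3 reads, edgeR called 8 lower and 0 higher in pre-iPSCs against MEFs. Over 4436 tested promoters 0.834% were called lower and 1.49% higher. The other 89 members had too few reads for the test. The median change was -1.08 (log2) over the tested members and -0.01 over all, and both pre-iPSC libraries lay below both MEF libraries at 35 of 51, against 22.8% of all promoters. Itgb4, Nat8l, Tlx3 and 2410137M14Rik passed the read filter only through MEFs, and Rfx4, Dock9 and Atp2a3 only with a MEF library. Their calls, the median change and the count of libraries apart thus do not count as support. With 1000 bp either side 44 of 123 members were lower, where 3.09% of all promoters were. With DESeq2 0 were called, with calls of at least 2 reads 2, without the filter 14, and with 1 MEF or pre-iPSC library left out 3 or 4. Without replicate 2 of iPSCs it was 13.

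Reads at these promoters were few, and they are given for replicates 1 and 2. Nccrp1 had 0 and 2 H3K27me3 reads in pre-iPSCs, against 13 and 33 for MEFs and 11 and 17 for iPSCs, and its change between pre-iPSCs and MEFs was -4.25 ± 0.68 (log2, SE; adjusted p = 2.98e-05). Itgb4 had 2 and 2 reads in pre-iPSCs, against 16 and 18 for MEFs and 9 and 9 for iPSCs, a change of -2.92 ± 0.62 (adjusted p = 0.00287). Tlx3 had 3 and 1 reads in pre-iPSCs, against 14 and 16 for MEFs and 7 and 9 for iPSCs, a change of -2.74 ± 0.69 (adjusted p = 0.0122). At all 3 the pre-iPSC libraries were the lowest, and the MEF libraries lay above the iPSC libraries at Itgb4 and Tlx3 and overlapped them at Nccrp1.

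Rfx4 had 4 and 3 reads in pre-iPSCs, against 28 and 15 for MEFs and 13 and 8 for iPSCs, a change of -2.50 ± 0.53 (log2; adjusted p = 0.00287). Atp2a3, Dock9, 2410137M14Rik and Nat8l, an acetyltransferase of the brain that makes N-acetylaspartate, changed by between -2.27 and -1.94. In iPSCs Nat8l had 4 and 6 reads and 2410137M14Rik 7 and 2, near the pre-iPSC values of 4 and 7 and of 4 and 4. Nccrp1, Dock9 and 2410137M14Rik were called for both marks, out of 49 members tested for both. In these 3 H3K4me3 was higher and H3K27me3 lower than in MEFs.

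From pre-iPSCs to iPSCs edgeR called H3K27me3 higher at 1 of 51 members, Nccrp1, against 0.0902% of all promoters, and lower at none. Its change was 3.69 ± 0.75 (log2, SE; adjusted p = 0.00608). The median member changed by 0.88 (log2), the median promoter by -0.02, and the libraries of the cell types did not overlap at 36 of 51 (34 higher and 2 lower in iPSCs), against 37.3% of all promoters in either direction. The call was lost with DESeq2, with calls of at least 2 reads, without replicate 1 of pre-iPSCs and without replicate 2 of iPSCs. With 1000 bp either side 9 of 123 members were called higher, where 0.663% of all promoters were. These comparisons share the pre-iPSC libraries with those against MEFs, so a low value there enters both. The 51 members are those tested above, and Nccrp1 passed the read filter only through MEFs and iPSCs. The call, the median change and the counts of libraries apart thus do not count as support.

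**Figure D3:**
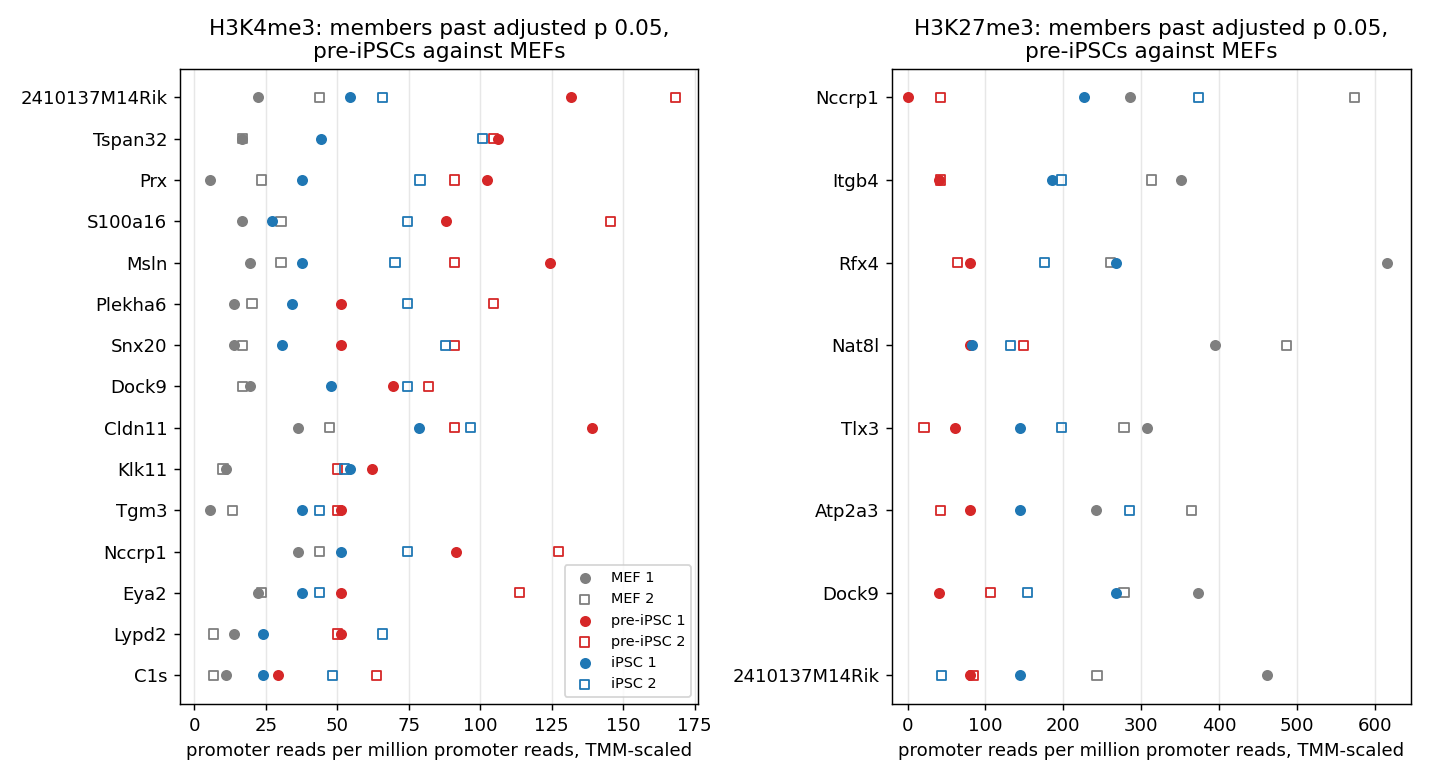
Promoter reads in CPM with TMM factors for the 15 members called higher in H3K4me3 (left) and the 8 called lower in H3K27me3 (right) in pre-iPSCs against MEFs; filled circles are replicate 1 and open squares replicate 2. Pre-iPSC values lie above the MEF values on the left and below them on the right, and many iPSC values lie between.

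The difference was not limited to the TSS. Averaged over members, H3K27me3 between 1000 and 2000 bp upstream was 0.322 and 0.369 RPKM in pre-iPSCs, against 0.552 and 0.544 for MEFs and 0.517 and 0.501 for iPSCs. Between 500 and 1500 bp downstream it was 0.302 and 0.280 RPKM in pre-iPSCs, against 0.556 and 0.573 for MEFs and 0.548 and 0.504 for iPSCs. For all genes the 6 downstream values lay between 0.309 and 0.382. Mean H3K4me3 downstream was 1.19 RPKM in both pre-iPSC libraries, against 0.845 and 0.727 for MEFs and 0.837 and 0.934 for iPSCs. Over all genes it was 0.828 and 0.854 RPKM in pre-iPSCs, below the 1.25 and 0.993 for MEFs and near the 0.798 and 0.833 for iPSCs. Within 500 bp of the TSS the pre-iPSC and iPSC libraries overlapped, at 1.05 and 0.939 against 0.943 and 0.929 RPKM, and downstream they did not. Over whole genes the median H3K4me3 of members was 0.596 and 0.691 RPKM in pre-iPSCs, against 0.381 and 0.389 for MEFs and 0.527 and 0.603 for iPSCs.

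**Figure D4:**
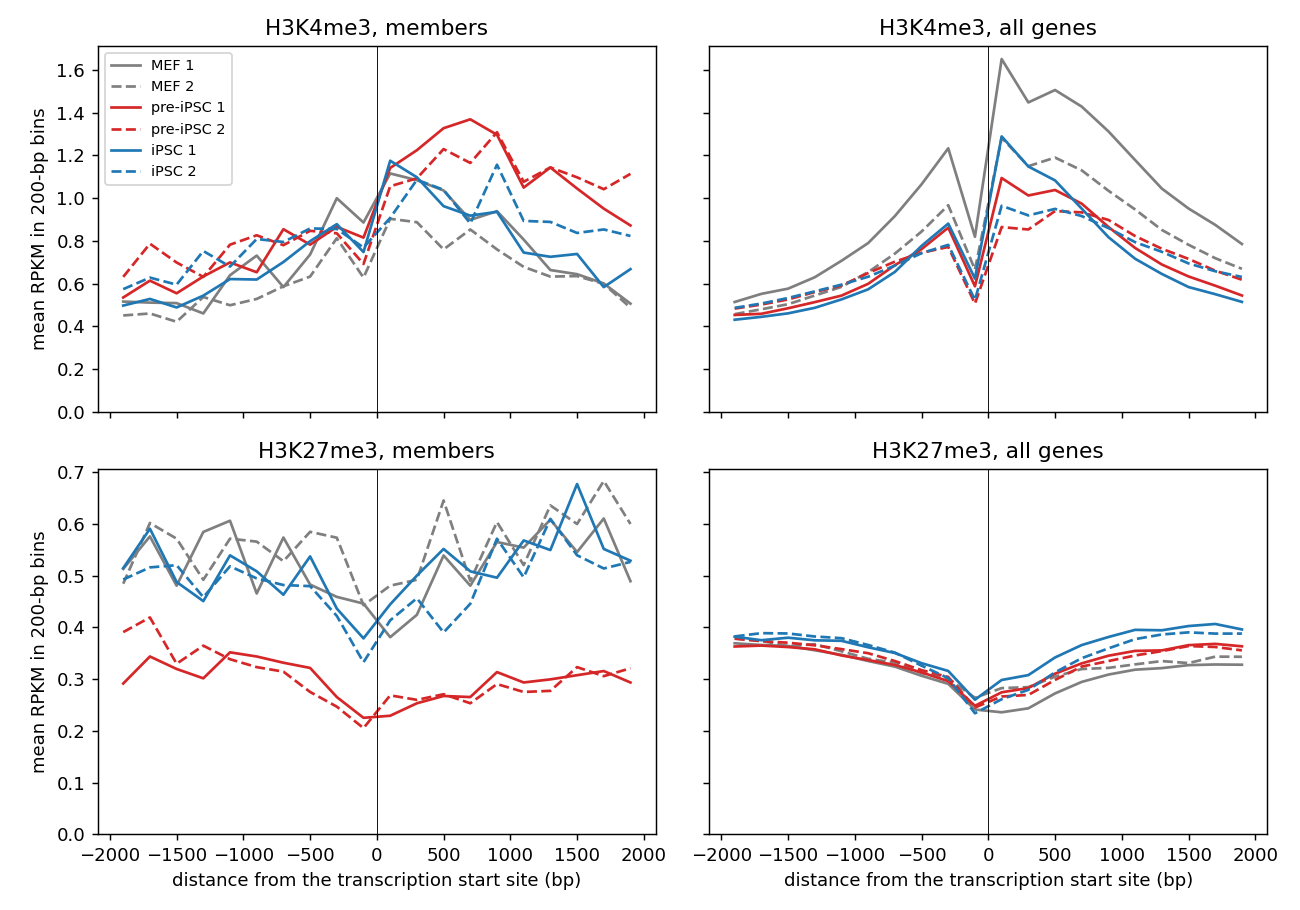
Mean RPKM of H3K4me3 (top) and H3K27me3 (bottom) in 200-bp bins by distance from the TSS in bp, for 140 members (left) and all genes (right); solid lines are replicate 1 and dashed lines replicate 2. Members in pre-iPSCs (red) show the lowest H3K27me3 over the whole span and the highest H3K4me3 from 500 to 1500 bp downstream, 1.19 RPKM in both libraries.

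The calls for the 2 marks were divided differently between CpG-rich and CpG-poor promoters, with Nccrp1, Dock9 and 2410137M14Rik, all CpG-poor, called for both. All 15 members called higher in H3K4me3 had promoters that were not CpG-rich, 15 of the 78 tested, and none of the 50 CpG-rich members was called. The median change was 1.15 (log2) at the CpG-poor and 0.28 at the CpG-rich members. Promoters in general shifted in the same sense, with 3.32% of CpG-poor and 0.561% of CpG-rich promoters called higher and medians of 0.29 and -0.12. For H3K27me3, 5 of 16 CpG-rich members were called lower (Itgb4, Rfx4, Nat8l, Tlx3 and Atp2a3) and 3 of 35 others, with medians of -1.55 and -0.96 (log2). Over all promoters 1.69% and 0.583% were called lower, with medians of -0.12 and 0.01. The difference between the kinds of promoter was not tested, and the limits of the read filter given for each mark apply here too. All 5 CpG-rich members called lower in H3K27me3 passed that filter only with a MEF library, as did Dock9 and 2410137M14Rik. The split of these calls thus does not count as support.

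**Figure D5:**
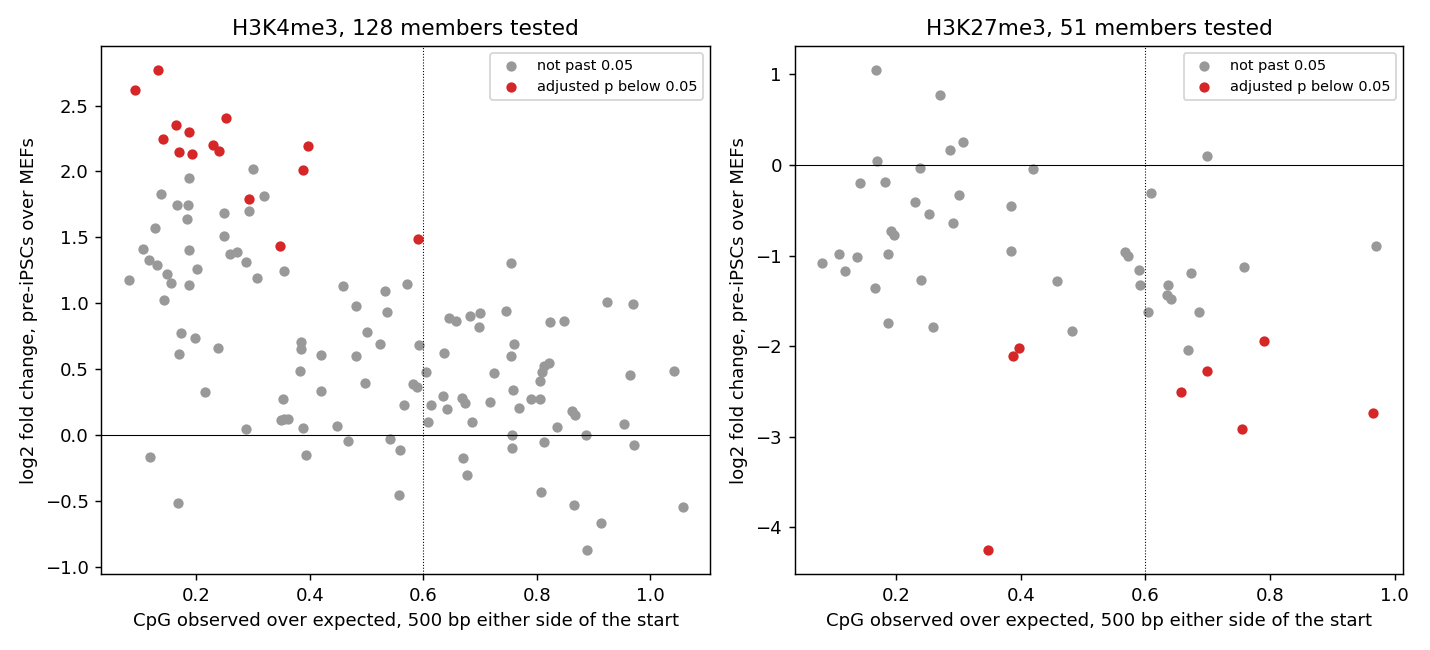
Log2 fold change, pre-iPSCs over MEFs, of H3K4me3 at 128 members (left) and of H3K27me3 at 51 (right) against the ratio of observed to expected CpG within 500 bp of the TSS; red points passed an adjusted p of 0.05 and the dotted line marks a ratio of 0.6. The red points for H3K4me3 all lie left of the line, and 5 of the 8 for H3K27me3 lie right of it.

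Taking a mark as present above 1 RPKM, 47 members had H3K4me3 without H3K27me3 in both pre-iPSC libraries, 34 in both MEF libraries and 37 in both iPSC libraries. Library by library, H3K4me3 alone held for 47.1% and 42.1% of members in pre-iPSCs, where it held for 40.2% and 30.4% of all promoters. The shares were 40.7% and 29.3% of members against 55.8% and 47.1% of all promoters for MEFs, and 42.9% and 38.6% against 44.3% and 32.1% for iPSCs. Members were thus below the general share in both MEF libraries and above it in both pre-iPSC libraries. No member passed 1 RPKM of H3K27me3 in either pre-iPSC library, while 8 and 9 did in MEFs and 7 and 5 in iPSCs. Of all promoters 2.10% and 1.83% passed in pre-iPSCs, against 2.10% and 3.21% for MEFs and 1.87% and 1.56% for iPSCs, so a count of 0 among 140 is close to this low background. Neither mark passed at 52.9% and 57.9% of members in pre-iPSCs, against 57.7% and 67.7% of all promoters. For MEFs it was 53.6% and 64.3% of members against 42.1% and 49.7% of all promoters, and for iPSCs 52.1% and 57.9% against 53.9% and 66.3%. These states depend on the limit: H3K4me3 alone held for 66 and 59 members in the pre-iPSC libraries at 1 RPKM, for 7 and 2 at 2 RPKM, and for 108 and 116 at 0.5 RPKM.

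H3K9me3, with 1 library per cell type and no test, was lower in pre-iPSCs than in both other cell types at 88 members (62.9%), against 38.6% of all promoters. Its median at members was 0.249 RPKM in pre-iPSCs, against 0.328 for MEFs and 0.331 for iPSCs, and over all promoters 0.187 against 0.197 and 0.265. Slc38a5, Apcdd1 and Nrarp had no H3K9me3 read in pre-iPSCs, as had 3 more members. The highest were Aldh3a1, Dmkn and Ly6g6f, at 0.873, 0.810 and 0.748 RPKM in pre-iPSCs against 0.590, 0.262 and 0.393 in MEFs. These 3 were picked for a high value in this 1 pre-iPSC library, so their standing above MEFs follows in part from the choice.

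Histone H3 itself was called at no member and no promoter in either comparison. At an unadjusted p below 0.05 in edgeR, 8 of 138 members were below that limit as lower in pre-iPSCs against MEFs and 0 as higher, against 0.640% and 1.05% of all promoters. In iPSCs against pre-iPSCs 3 were higher and 0 lower, against 0.233% and 0.418%, and DESeq2 called 0 in both comparisons. The median change was -0.30 (log2) from MEFs to pre-iPSCs and 0.26 from pre-iPSCs to iPSCs, against 0.03 and 0.04 over all promoters. Both pre-iPSC libraries lay below both MEF libraries at 48 members, against 14.7% of all promoters, and both iPSC libraries above both pre-iPSC libraries at 33, against 9.99%. Without replicate 2 of pre-iPSCs, which leaves the library that stands apart, 15 members were called lower against MEFs, with 15.1% of all promoters, and 9 higher in iPSCs, with 9.41%. The marks were not corrected for H3, and its part in the lower H3K27me3 and H3K9me3 was not tested.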

How the data were processed

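RNA-seq and MNase ChIP-seq of MEFs, pre-iPSCs and iPSCs were used. Per the labels and methods, the authors aligned ChIP reads to mm9 with Bowtie 1.0.1, kept unique reads, moved them by 73 bp and used GeneTrack to place nucleosomes. The deposited values used here are read counts per placed nucleosome. RNA reads were aligned by the authors with TopHat2 2.0.4, and the deposited FPKM come from Cufflinks 2.0.2.

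The members, lists and tests were chosen with earlier results of these data known, among them a set of genes the study picked from the same libraries. Named with values were the 15 members of highest least ratio, members on a list, the largest changes past a test of a mark, those near the threshold, neighbours within 100 kb and the extremes in H3K9me3 and CpG. Other members given with values, and the groups of function, were chosen after their values were seen. The values of 1 member are not reported here.

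Reads of calls within 500 bp of the TSS were tested over all promoters with edgeR 4.0.16 (filterByExpr, TMM, quasi-likelihood, Benjamini-Hochberg). RPKM used the unique reads the study gives for each library. The FPKM of genes with a mean of at least 0.5 were tested as log2(FPKM + 1) with limma 3.58.1 (trend), the table being a term. A fold change on that scale understates low genes. Tests were checked on simulated data. DESeq2 1.42.0, other windows, filters, scalings and each library left out were alternatives. R 4.3.3, Python 3.11.15 and pysam 0.24.0 were used; sequences are from mm9.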

Additional observations from a re-analysis of the deposited data

How the results depend on the processing

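The number of members was 211 at a factor of 3, 66 at a factor of 6, 87 with 2 FPKM added and between 233 and 243 with 1 of the 2 tables alone, against 140. Of the 134 genes found after upper quartile scaling, 131 were among the 140. Members called for H3K4me3 between pre-iPSCs and MEFs numbered 15, with 0 by DESeq2, 39 at 1000 bp either side and between 1 and 14 with a library left out. For H3K27me3 the 8 became 0 by DESeq2, 14 without the filter, 44 at 1000 bp, 2 with calls of at least 2 reads, and 3 to 13 with a library left out. The single call in iPSCs against pre-iPSCs became 0 by DESeq2, 9 at 1000 bp, 0 with calls of at least 2 reads, and 0 to 1 with a library left out. Calls for H3 ranged from 0 to 15 and from 0 to 9, and those for H3K4me3 in iPSCs against pre-iPSCs stayed at 0. DESeq2's size factors changed none of these counts by over 1.5 times. None of the 24 called promoter changes turned its direction in any alternative. Except where the window, filter or library was itself the change, the cause was not tested.

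Listed genes that are no members and were called numbered 67 and 38 in the 2 expression comparisons. Without the filter they were 0 and 4, and with a library left out 49 to 79 and 0 to 74. Replicate numbers did not pair the ChIP libraries across all cell types, although those of H3 in pre-iPSCs and iPSCs deviated together: deviations of same-numbered libraries correlated at -0.05, -0.02 and 0.12 for H3K4me3, at 0.01, -0.03 and 0.01 for H3K27me3, and at -0.02, 0.01 and 0.74 for H3. A fit with the replicate block called 14 members for H3K4me3, 8 and 1 for H3K27me3 and 0 for H3. Without the table as a replicate block the expression counts were 67 and 39.
Median promoter RPKM scaled to the reads in calls was higher by a common factor in each library. Few reads per promoter limit the marks: 12 members could not be tested for H3K4me3 and 89 for H3K27me3.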
